A study of Rattus norvegicus with 2 samples.

Results

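The cytosolic ribosomal protein genes were followed across the cell classes of the rat proximal jejunum. Rows of the count tables were taken as members when their symbol was that of a cytosolic ribosomal protein of the large subunit (Rpl), the small subunit (Rps), the P stalk (Rplp) or Rpsa, and when they held at least 1000 UMIs (unique molecular identifiers, each standing for 1 captured mRNA molecule) over both libraries. Of 32883 rows, 80 carried such a symbol and 67 of these were members, 40 of the large and 27 of the small subunit. Those 67 rows stood for 65 symbols, since Rpl32 and Rps27a had 2 member rows each. The members were thus chosen by their symbol and their UMI total over both libraries, which is given here as a description. Just inside the limit lay Rps4y2 with 6096 UMIs, Rps19 with 7157 and Rps10 with 11292. Just outside lay a row of Rpl21 with 388 UMIs, Rps29 with 133 and another row of Rpl21 with 99. The other 10 rows outside the limit held 0 or 1 UMI, among them the only rows of Rps6 and Rplp2, so neither gene is described. Rplp1, Rps7, Rps9, Rps14 and Rps26 were not analysed here, since no row carried those symbols. The highest totals were those of Rpl41 (514752 UMIs), Rplp0 (487944 UMIs) and Rpl27a (371551 UMIs).

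The comparisons were between cell classes, as the labels name no treatment or genotype. Each library was made from the proximal jejunum of 1 male Sprague Dawley rat of 6 to 8 weeks and 180 to 200 g, fasted overnight, whose epithelium was released with EDTA and dispase and run on the 10x Genomics 3' platform. Rat 1 gave 12033 barcodes and rat 2 gave 8252. Cells with over 5000 UMIs and at most 40% mitochondrial UMIs were kept, 6035 in rat 1 (50.2% of barcodes) and 2303 in rat 2 (27.9%), with a median of 12231 and 13334 UMIs per kept cell. The libraries shared 28 barcodes, of which 4 passed the filter in both. Classes were named from marker genes after clustering without the ribosomal protein genes, and 18.8% of the kept cells of rat 1 and 10.4% of rat 2 stayed unnamed. The isolated epithelium also held T-cell-like and hemoglobin-rich, erythroid-like cells.

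Cytosolic ribosomes are built from a small subunit, which reads the mRNA, and a large subunit, which joins amino acids, and each subunit needs every one of its proteins in about equal amounts. Most ribosomal protein mRNAs of mammals begin with a C followed by an unbroken run of pyrimidines, the 5' terminal oligopyrimidine (TOP) tract, through which the mTOR pathway and the protein Larp1 set their translation and stability. In the intestine, cells divide in the crypt and mature as they climb the villus, and dividing crypt cells are known for a high demand for ribosomes.

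The start sites of a few members are shown because they are the genes on which the results turn. RefSeq promoter sequences (build GRCr8) were matched by symbol for 52 of the 65 member symbols. The deposited tables were made on the earlier build rn6, so only names were carried between the builds. Each line gives 15 bases before and 15 bases from the start in that table, 5' to 3', with the longest unbroken run of C and T in capitals. The first 4 genes are among those that differed most between crypt-like and enterocyte-like cells, the next 4 among those that differed least, and the last is a reference gene of the P stalk.
Rps2, chr10:14251833-14251862, plus strand: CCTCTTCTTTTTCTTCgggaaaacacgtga
Rpl3, chr7:113507976-113508005, minus strand: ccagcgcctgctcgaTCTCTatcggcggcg
Rpl5, chr14:1995211-1995240, minus strand: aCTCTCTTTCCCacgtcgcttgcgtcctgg
Rpl36a, chrX:102059434-102059463, plus strand: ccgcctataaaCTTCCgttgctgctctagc
Rpl10, chrX:157205835-157205864, plus strand: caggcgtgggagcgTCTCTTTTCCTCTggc
Rpsa, chr8:128728864-128728893, plus strand: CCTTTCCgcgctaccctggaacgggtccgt
Rps27, chr2:177964592-177964621, minus strand: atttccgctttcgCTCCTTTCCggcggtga
Rps4y2, chr4:183000898-183000927, plus strand: gcgcgcagCTCTCCTCactcgcttgtgctc
Rplp0, chr12:46718376-46718405, minus strand: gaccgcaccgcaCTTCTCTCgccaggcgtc

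Over the 53 promoters with a member symbol, a C at the start followed by at least 4 pyrimidines stood in 18 (34.0%), against 2.63% of all 33469 promoters of the same length. It stood in 0 of the 14 promoters of other genes with known TOP mRNAs. The listed starts were not checked against the 5' ends of mRNAs in these cells. A start without such a C thus does not show that a TOP tract is absent. A run of at least 8 pyrimidines anywhere in the 30 bases stood in 34 of the 53 (64.2%), against 11.4% of all promoters. The letters CTCTTTC were found in 7 of the 53 windows on the gene's strand (13.2%) and in 0 on the other, against 0.350% and 0.299% of all promoters. Among the genes shown, the start (base 16 of the line) lay inside the run in Rps2, Rpl36a, Rpl10, Rps27, Rps4y2 and Rplp0, at its first base in Rpl3 and after it in Rpl5 and Rpsa. A run is a description of these letters and says nothing of how an mRNA was used.

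The summed share of the members, as a percent of UMIs outside the mitochondrial genome, was high in some named classes and low in others. Some unnamed clusters lay between them (below). In crypt-like cells, named from stem genes such as Olfm4, the share was 22.7% in rat 1 (1124 cells) and 18.7% in rat 2 (29 cells). Their clusters also expressed cycling genes such as Mki67. Secretory progenitor-like cells, which express both cycling and goblet genes, had 21.4% and 16.0%. Goblet/Paneth-like cells, led by Clca1, Agr2 and Itln1, had 18.8% and 15.2%. T-cell-like cells had 21.9% and 19.4%, and cycling T-cell-like cells 22.3% and 17.1%. These 5 classes lay above every other named class in rat 2, and in rat 1 tuft-like cells came next with 16.9%. Of the cycling T-cell-like cells, 2 of 26 in rat 1 held 10 or fewer UMIs summed over Epcam and a set of epithelial keratins. In rat 2 it was 43 of 50 cells. The part of these epithelial UMIs in the share was not tested.

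The low classes included the enterocyte-like, goblet-like and erythroid-like cells. The enterocyte-like cells of each rat were cut into 3 equal groups, early, middle and late, by a maturity score of villus tip over villus base genes. In early, middle and late enterocyte-like cells rat 1 had 7.54%, 2.41% and 1.44%. Rat 2 had 3.45%, 1.24% and 0.611% in the same order. Goblet-like cells, led by Zg16 and Guca2a, had 4.16% in rat 1 (49 cells) and 0.846% in rat 2 (107 cells). Erythroid-like cells had the lowest share in both rats, 0.850% and 0.287%. That place changed with the total used. With the 50 most abundant other genes left out of it, the mean over both rats was 8.93%, above 7.81% in early, 3.05% in middle and 1.93% in late enterocyte-like cells and 6.15% in goblet-like cells. The crypt-like share was 15.8 times that of late enterocyte-like cells in rat 1 and 30.7 times in rat 2. The unnamed absorptive clusters lay between crypt-like and early enterocyte-like cells in both rats. The cluster led by Bcl2l15 and Pycard had 20.2% in rat 1 (441 cells) and 14.1% in rat 2 (12 cells). The cluster led by LOC691352 and Bcl2l15 had 15.6% (364 cells) and 7.81% (38 cells). The share thus covered a range without a gap between crypt-like and enterocyte-like cells.

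Of the other 3 secretory classes, tuft-like cells lay between the high and the low classes, and EEC-like and CHE-like cells lay below early enterocyte-like cells in both rats. Enteroendocrine (EEC)-like cells had 5.87% (21 cells) and 3.35% (11 cells). Tuft-like cells, the chemosensory cells marked by Dclk1 and Trpm5, had 16.9% (14 cells) and 3.98% (122 cells). CFTR high expresser (CHE)-like cells, marked by Cftr, Best4 and Otop2, had 7.30% (8 cells) and 1.74% (76 cells), while the median CHE-like cell had 4.36% and 1.13%. Rat 1 was above rat 2 in all 13 classes, by 1.13 times in T-cell-like cells up to 4.92 times in goblet-like cells. The rat, the library and the software version that made each table cannot be told apart. The widest exact 95% Clopper-Pearson interval of any of these shares was that of tuft-like cells of rat 1, 16.7% to 17.2%, so counting error was small beside the difference between rats. Such intervals cover counting error only.

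**Figure D1:**
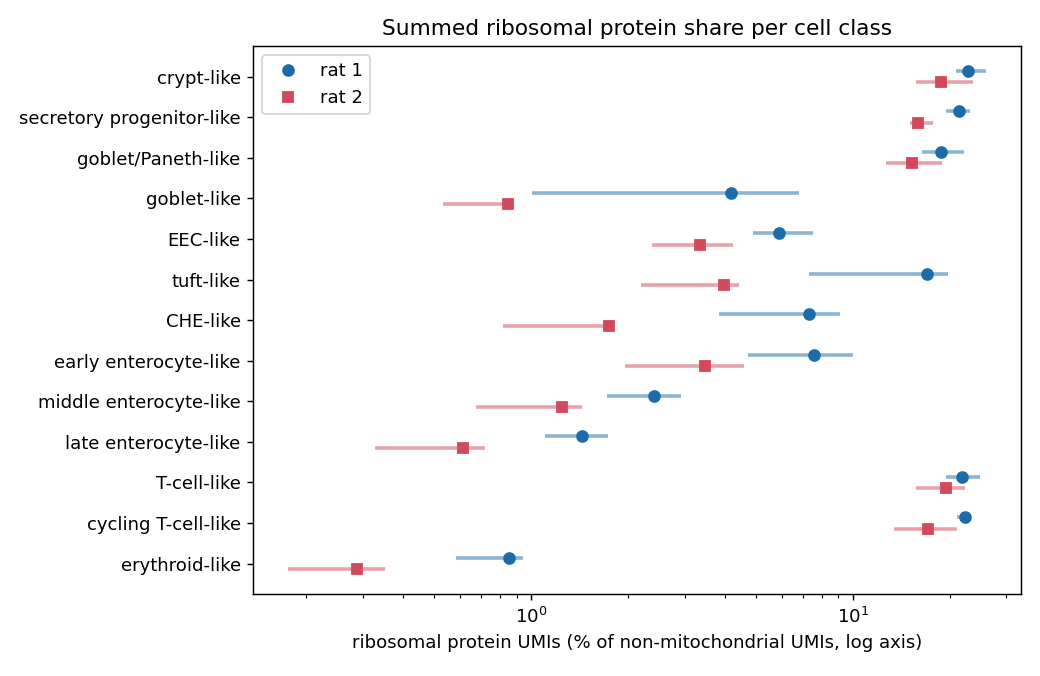
Summed ribosomal protein UMIs as a percent of non-mitochondrial UMIs (log axis) in each cell class, with points for the pooled cells of rat 1 and rat 2 and bars for the lower to upper quartile over cells. Crypt-like, secretory progenitor-like, goblet/Paneth-like and T-cell-like points lie between 15.2% and 22.7%, and the late enterocyte points at 1.44% and 0.611%.

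Crypt-like and late enterocyte-like cells also stood apart in UMIs per cell. The median crypt-like cell carried 2736 ribosomal protein UMIs in rat 1 and 3507 in rat 2, from a median of 66 of the 67 members. The median late enterocyte-like cell carried 135 and 49, from 46 and 27.5 members. Median non-mitochondrial UMIs per cell were 11656 and 18542 in crypt-like cells against 9854.5 and 10750 in late enterocyte-like cells, so the members differed far more than the total. The lower quartile of the share over crypt-like cells was 20.9% and 15.6%, and the upper quartile over late enterocyte-like cells was 1.73% and 0.716%. Goblet-like cells of rat 1 had a median of 1.57%, with quartiles of 1.01% and 6.80%, and a pooled share of 4.16%.

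Along enterocyte maturity the share was lower in each successive bin in both rats. Over 10 bins of equal size ordered by the score, rat 1 went from 11.0% in the lowest to 1.17% in the highest, and rat 2 from 4.81% to 0.439%. The median count of ribosomal protein UMIs per cell went from 1125.5 to 107 in rat 1 and from 1090 to 38 in rat 2. Median non-mitochondrial UMIs per cell went from 9887.5 to 9326 in rat 1 and from 23501 to 9442 in rat 2 over the same bins. In the lowest bin the rats thus differed more in the share than in ribosomal protein UMIs per cell. Non-mitochondrial UMIs per cell were higher in rat 2 there. The median mitochondrial percent over the same cells went from 14.1% to 11.4% in rat 1 and from 23.1% to 29.0% in rat 2, in opposite directions, while the share went down in both. Of the enterocyte-like cells, 159 of 3277 and 54 of 1085 had a score within 0.1 of the limits of the 3 groups, so each group is a range of a continuous score.

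**Figure D2:**
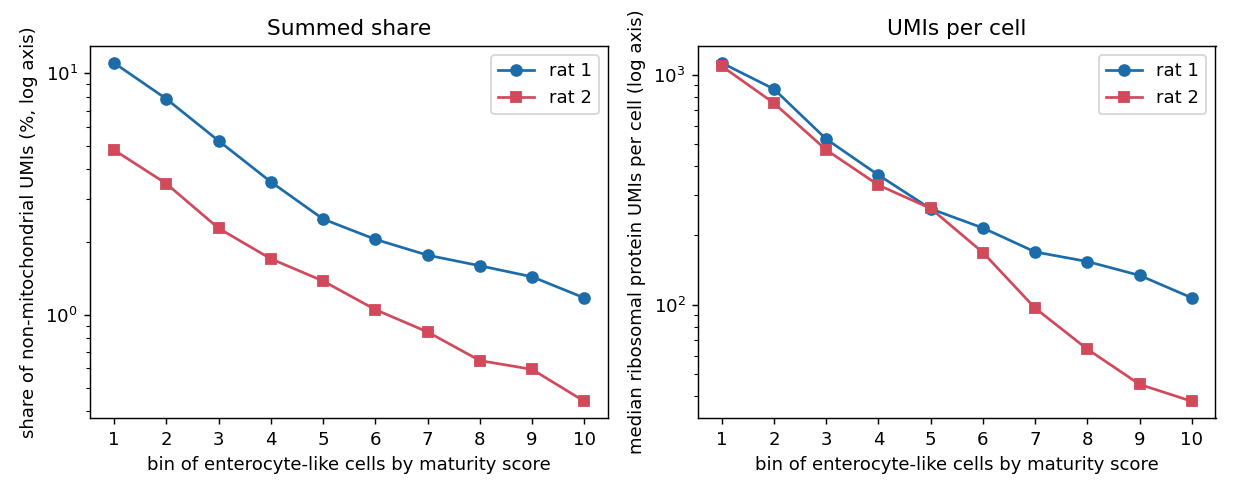
Summed ribosomal protein share (left, percent of non-mitochondrial UMIs, log axis) and median ribosomal protein UMIs per cell (right, log axis) over 10 bins of the enterocyte-like cells ordered by maturity score, by rat. The share goes from 11.0% to 1.17% in rat 1 and from 4.81% to 0.439% in rat 2.

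Comparisons between classes were made on UMIs summed per rat and class, with edgeR's quasi-likelihood test over all 9771 genes and Benjamini-Hochberg adjustment, and a gene was called at an adjusted p under 0.05. The 26 sums came from only 2 rats, and every class holds a sum from each. The fit treated the sums as independent and pooled the spread over the 13 classes. Its p-values thus measure the difference between the 2 rats within classes, which includes library and software version. Because the same animal gives a sum to each class, values with the rat as a block are printed beside a result where they change it. Levels are in CPM, UMIs per 1000000 non-mitochondrial UMIs of the class. Fold changes are relative to the other genes, since fewer mRNA molecules of these genes and more of all others cannot be told apart.

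In crypt-like against enterocyte-like cells, 64 of the 67 members rose and 0 fell (95.5% higher, against 26.3% of all genes tested, while 19.5% of all genes fell). Their median log2 fold change was 2.56, beside 0.10 over all genes, and 66 were higher in both rats, against 4202 of all 9771 genes. With the rat as a block 66 rose, against 31.4% of all genes. Rps2, a small subunit protein near the mRNA entry channel, had 8495 and 6429 CPM in crypt-like cells of rat 1 and rat 2. In enterocyte-like cells it had 1749 and 705 CPM in the early and 149 and 44.8 CPM in the late group, and the groups did not overlap. It rose by 3.87 on the log2 scale (SE 0.83, adjusted p = 0.000797). Rpl3, which lies close to the peptidyl transferase centre of the large subunit, had 4853 and 4563 CPM in crypt-like cells and 121 and 23.9 in the late group. It rose by 3.62 (SE 0.74, adjusted p = 0.000553).

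Other members with the widest differences were of the large subunit. Rpl36a rose by 3.58 (SE 0.67), Rpl5, which carries the 5S rRNA into the ribosome, by 3.45 (SE 0.56) and the more abundant row of Rpl32 by 3.33 (SE 0.55). Rplp0, the base of the P stalk that recruits elongation factors, rose by 2.80 (SE 0.61, adjusted p = 0.00101), from 418 and 233 CPM in the late group to 9481 and 8670 in crypt-like cells. Rpl22, Rpl39 and Rpl13a rose by 2.48, 2.36 and 2.61.

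At the other end, 3 members were not called. Rps4y2, a copy of the S4 gene, was at 76.4 and 65.5 CPM in crypt-like cells and at 59.4 and 76.2 in the early group, and the groups overlapped. Its log2 fold change was 0.13 (SE 0.47, adjusted p = 0.85), with opposite signs in the 2 rats, while Rps4x, the other S4 gene, rose by 2.04 (SE 0.59, adjusted p = 0.00782). Reads of such close copies can be assigned to either, so the Rps4y2 values are uncertain. Rps21 and Rpl41 had log2 fold changes of 1.45 (adjusted p = 0.159) and 1.55 (adjusted p = 0.0786), and both were called with the rat as a block (adjusted p = 0.00612 and 0.00679). Among the called members, Rpl10 with 1.32 (SE 0.42), Rpsa with 1.41 (SE 0.56, adjusted p = 0.0444) and Rps27 with 1.58 (SE 0.58) rose the least. Rpsa, the laminin receptor precursor that also sits on the small subunit, had 5719 and 5977 CPM in crypt-like cells and still 1084 and 619 in the late group.

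**Figure D3:**
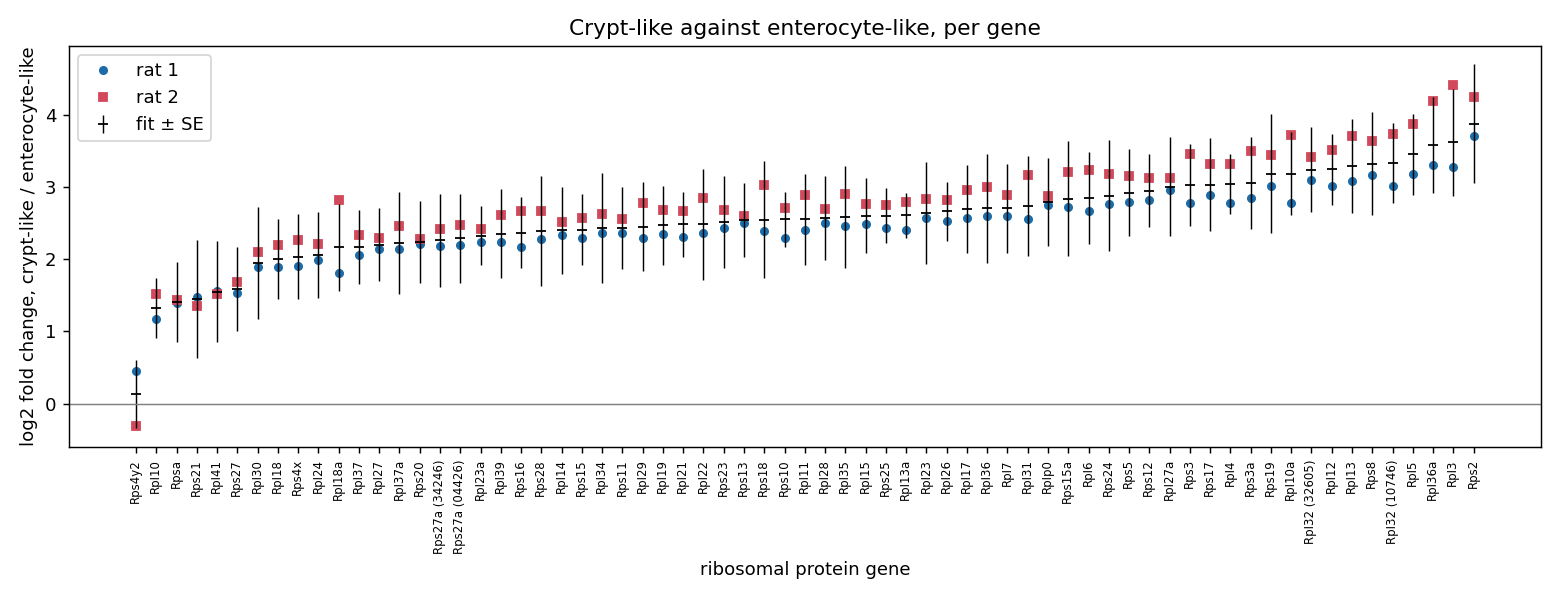
Log2 fold change of each ribosomal protein gene, crypt-like over enterocyte-like, with points for each rat and a bar for the edgeR value ± SE, ordered by size. Rps2 (3.87) and Rpl3 (3.62) are at the right end, and Rps4y2 (0.13) is the only gene whose rats lie on both sides of 0.

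Within the enterocyte-like cells, 0 of 67 members passed the test in late against early cells in either direction, where 0.307% of all genes were called higher and 0.143% lower. Their median log2 fold change was -1.99, beside -0.01 over all genes. All 67 were lower in both rats, against 3786 of all 9771 genes. An unadjusted p under 0.05 was found for 48 members, against 1563 of all genes. With the rat as a block 58 of 67 fell (86.6%), against 6.85% of all genes. DESeq2 called 29 lower, and its share over all genes was not counted. The largest difference was that of Rps2, -3.14 (SE 1.21, adjusted p = 0.202, and 0.0185 with the block), followed among the members described here by Rpl3 with -3.01 (SE 1.08). Rpsa had the smallest, -0.66 (SE 0.73, adjusted p = 0.711), from 2194 and 1711 CPM in the early group to 1084 and 619 in the late group. Rpl10, Rps27, Rps21, Rpl41, Rps4y2 and Rpsa were among the 9 members not called with the block.

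The secretory classes (goblet-like, EEC-like, tuft-like and CHE-like cells, taken with equal weight) were compared with both ends. Against enterocyte-like cells, 5 of 67 members rose (7.46%, against 9% of all genes) and 0 fell (21.6% of all genes), a share of risers near the background, with a median log2 fold change of 0.73 beside -0.21 over all genes. The 5 were Rpl5 (1.31, SE 0.43), the more abundant row of Rpl32 (1.24, SE 0.42), Rpl13a (0.87, SE 0.24, adjusted p = 0.00819), Rpl26 (0.84, SE 0.31) and Rps25 (0.81, SE 0.30). With the rat as a block 24 rose, against 11.3% of all genes. DESeq2 called 57, with a median log2 fold change of 1.30 over the members and 0.49 over all genes. The per-rat medians were 0.87 in rat 1 and 0.37 in rat 2. The count went to 39 with goblet/Paneth-like in place of goblet-like cells and to 0 with the unnamed absorptive clusters counted as enterocyte-like. The share of all genes called was not counted under DESeq2 or these changes of class, so those counts have no background beside them.

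Against crypt-like cells, 48 of 67 members fell in the secretory classes (71.6%, against 20.6% of all genes) and 0 rose (6.42% of all genes). The median was -1.88, beside -0.31, and all 67 were lower in both rats, against 4614 of all 9771 genes. Rps19, a small subunit protein needed for maturation of that subunit, fell by 3.09 on the log2 scale (SE 0.91, adjusted p = 0.0173), from 165 and 81.4 CPM in crypt-like cells to 13.2 and 0.740 in goblet-like cells, where rat 2 held 1 UMI of it. All secretory sums of Rps19 were near the floor, from 1 to 8 UMIs, so the size of its fall is uncertain. Rps2 fell by 2.67, Rpl36a by 2.48, Rpl10a by 2.41 and Rpl4 by 2.37. With the goblet/Paneth-like cells in place of the goblet-like cells 11 fell, where the share over all genes was not counted. With the rat as a block 65 fell, against 25.1% of all genes. Both goblet classes were described side by side without a test, and the goblet/Paneth-like share was 4.52 times the goblet-like share in rat 1 and 18.0 times in rat 2.

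T-cell-like cells, the immune class, were compared last. Against enterocyte-like cells 62 of 67 members rose (92.5%, against 23.1% of all genes) and 0 fell (19.2% of all genes), with a median of 2.41 beside -0.06. Rpl36a rose by 3.47 (SE 0.67), Rps2 by 3.38 (SE 0.82), Rpl13 by 3.34 (SE 0.65), Rpl12 by 3.27 (SE 0.50) and Rpl32 by 3.23 (SE 0.55). With the rat as a block 66 rose and 1 fell, against 27.2% and 26.0% of all genes. The latter was Rps4y2, with -1.21 (SE 0.56, adjusted p = 0.0869, and 0.0344 with the block), from T-cell-like sums of only 15 and 16 UMIs. Against crypt-like cells 0 of 67 members were called by edgeR in either direction, where 3.56% of all genes were called higher and 1% lower, and 0 with the block, where 9.19% of all genes were called. There the median was -0.19, beside -0.24 over all genes, and 1 member had an unadjusted p under 0.05, against 1537 of 9771 genes. DESeq2 called 0 members, and the per-rat medians were -0.37 and 0.10. The T-cell-like class of rat 1 held 34 cells, of which 2 held 10 or fewer UMIs summed over Epcam and a set of epithelial keratins, against 158 of 166 cells in rat 2. The part of these epithelial UMIs in the immune values was not tested.

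The make-up of the module was read as UMIs per 10000 ribosomal protein UMIs, with the same test scaled to the total of the 67 members. In crypt-like against enterocyte-like cells 2 members rose and 1 fell relative to that total, against 5.34% and 55.0% of all genes. Neither count of members exceeds the share over all genes. In this scaling that share is not a like background, since scaling to the members' total shifts all other genes against the change of the members. Rps2 rose by 1.45 (SE 0.56, adjusted p = 0.0316), from 104 and 73.4 per 10000 in the late group to 374 and 343 in crypt-like cells. Rpl3 rose by 1.28 (SE 0.54, adjusted p = 0.045), from 84 and 39.1 to 214 and 244. Rps4y2 fell by 2.56 on the log2 scale (SE 0.82, adjusted p = 0.0125), from 17.4 and 29 to 3.36 and 3.5. With the rat as a block 6 rose, the others being Rpl36a, Rpl5, Rps19 and the less abundant row of Rpl32, and 4 fell, the others being Rps21, Rpl10 and Rpsa, against 7.65% and 68.9% of all genes.

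The place of Rpsa in the module was widest in late enterocyte-like cells among the classes named here. It made up 252 and 319 per 10000 ribosomal protein UMIs in crypt-like cells, 291 and 495 in the early, 540 and 867 in the middle and 754 and 1012 in the late group. In goblet-like cells it made up 225 and 325, and in secretory against enterocyte-like cells it fell by 1.21 relative to the module (SE 0.35, adjusted p = 0.0139), the 1 member called of 67, where 20.1% of all genes fell. With the block Rps4y2 and Rps21 fell there too (adjusted p = 0.015 and 0.0149), against 33.8% of all genes. Rpl41 made up 394 and 262 per 10000 in crypt-like cells and 834 and 1109 in goblet-like cells. Its part was also high in late enterocyte-like cells (778 and 672) and erythroid-like cells (869 and 1409), so it was not particular to goblet-like cells. Goblet-like cells alone were not tested against crypt-like cells. Relative to the module, Rps4y2 fell by 3.71 in immune against enterocyte-like cells (SE 0.90, adjusted p = 0.00288), the 1 member called, where 52.9% of all genes fell. The T-cell-like sums held only 15 and 16 UMIs of Rps4y2, so the size of its fall is uncertain. With the block Rpsa fell too and Rpl36a, Rpl3, Rps2 and Rpl13 rose, 2 lower and 4 higher, against 69.0% and 7.86% of all genes. In secretory against crypt-like cells 0 members were called relative to the module by edgeR, where 29.0% of all genes were, and 0 had an unadjusted p under 0.05, while DESeq2 called 3. With the block 2 fell (Rps19 and Rps2, against 3.40% of all genes). In late against early and in immune against crypt-like cells 0 were called by edgeR, where 0.0205% and 0% of all genes were, and 0 with the block, where 61.1% and 7.09% were, with 0 members under an unadjusted p of 0.05 in the fits without it, and DESeq2 called 3 in late against early and 0 in immune against crypt-like cells.

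**Figure D4:**
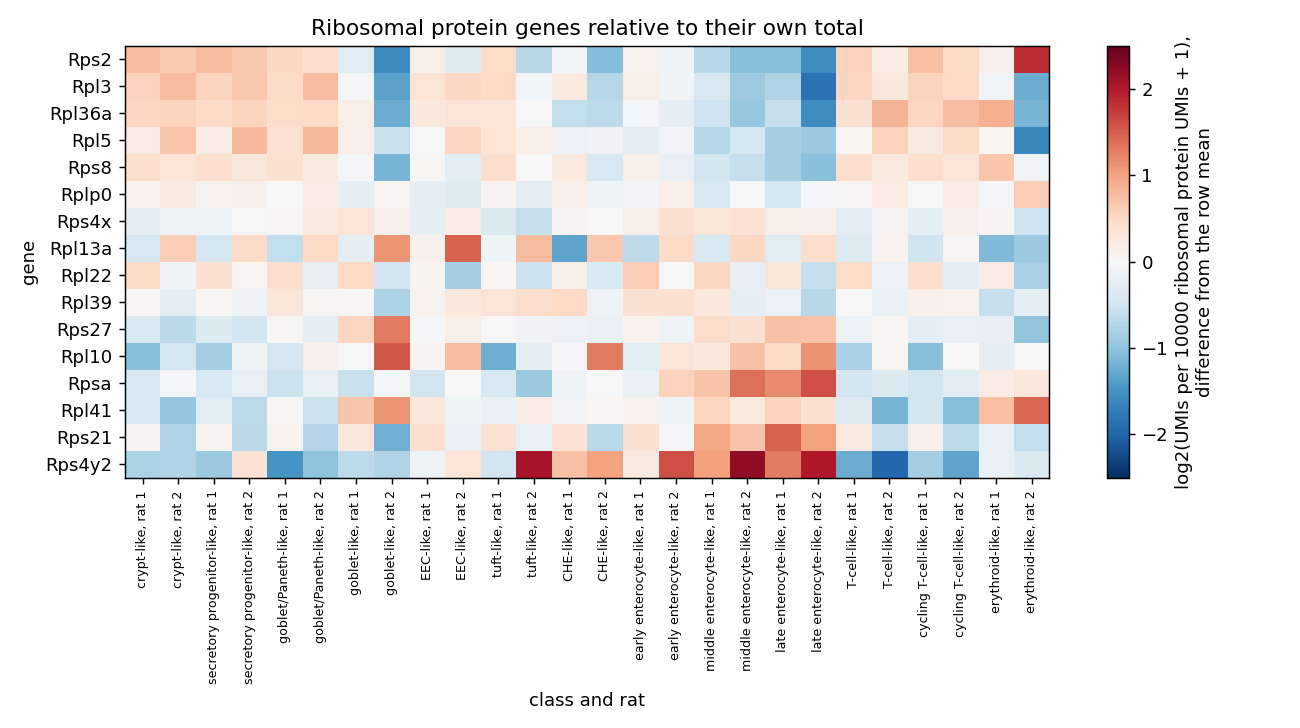
Difference of each gene's log2(UMIs per 10000 ribosomal protein UMIs + 1) from its own mean over all columns, for 16 members (rows) in each class and rat (columns). Rps2 and Rpl3 are above their mean in crypt-like columns and below it in late enterocyte columns, and Rpsa goes the other way.

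Some members differed between the rats in the same direction in nearly every class. Over 12 classes, erythroid-like cells left out, 26 of 67 members kept one sign of the rat difference in all classes, 13 higher and 13 lower in rat 2. The same count was not made over all genes, so it is not shown to be particular to the members. Over all genes tested, the rat differences of class pairs correlated by a median of 0.233. The median difference relative to the module was 1.22 on the log2 scale for Rps10, 0.96 for Rpl13a and 0.90 for Rpl21, all higher in rat 2 in 12 of 12 classes. It was -0.95 for Rps19, -0.81 for Rpl30 and -0.76 for Rps21. The count table of rat 1 names Cell Ranger 3.1.0 in its header and that of rat 2 names 5.0.1.

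Other genes of the translation machinery were counted in the same comparisons. In crypt-like against enterocyte-like cells, where 26.3% of all genes rose and 19.5% fell, 53 of 57 ribosome biogenesis genes rose (93.0%) and 1 fell, with a median of 3.81. Nle1, a factor in large subunit maturation, had the highest value (6.82, adjusted p = 2.2e-06), and Eif6, which keeps the subunits apart, the lowest (-1.64, adjusted p = 0.0104). Of 15 translation factor and related genes with known TOP mRNAs, 12 rose (80%) and 1 fell, with a median of 1.66, from Nap1l1 (5.81, adjusted p = 3.6e-07) to Eif4a2 (-1.33, adjusted p = 0.0327). Among 11 genes that control TOP mRNA translation 5 rose (45.5%) and 1 fell, with a median of 1.06, from Eif4ebp1, the 4E-binding protein 1 (4.38, adjusted p = 7.5e-07), to Rps6kb2 (-1.61, adjusted p = 0.0109). Of the ribosome proteins with other symbols, Rack1 rose by 2.91 (adjusted p = 4.7e-05). Of the 3 paralogs tested, Rpl22l1 rose by 2.24 (adjusted p = 0.00441), and Rpl36al had 0.72 (adjusted p = 0.301), while with the rat as a block all 3 were called higher. Without TMM, the scaling between sums, the lower call in each of the biogenesis, TOP and TOP control lists was lost.

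Other large complexes were counted beside them in crypt-like against enterocyte-like cells. Of 72 mitochondrial ribosomal proteins 38 rose and 0 fell, with a median of 1.29. Of 35 proteasome subunits 1 rose, with a median of 0.20, and of 73 nuclear genes of the respiratory chain 1 fell, with a median of -0.54. With the rat as a block 54 mitochondrial ribosomal proteins rose and 1 fell, 4 proteasome subunits rose and 7 respiratory chain genes fell. These counts also moved with the scaling. Without TMM 62 of 72 mitochondrial ribosomal proteins and 21 of 35 proteasome subunits rose (medians 2.10 and 1.03), and the respiratory chain median turned to 0.21, below the median of 0.87 over all genes, of which 38.8% then rose and 10.6% fell. In late against early enterocytes the medians were -0.79 for biogenesis genes, -0.88 for the TOP genes, -1.28 for mitochondrial ribosomal proteins and -1.99 for the members. There 1 of 72 mitochondrial ribosomal proteins fell, and 42 with the rat as a block, against 6.85% of all genes. In secretory against crypt-like cells 50 of 57 biogenesis genes, 13 of 15 TOP genes, 58 of 72 mitochondrial ribosomal proteins and 24 of 73 respiratory chain genes (32.9%) fell, against 20.6% of all genes. With the block 48 respiratory chain genes fell, against 25.1% of all genes. In immune against enterocyte-like cells 49 of 57 biogenesis genes rose and 2 fell, and 9 of 15 TOP genes rose (14 without TMM), against 23.1% and 19.2% of all genes.

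**Figure D5:**
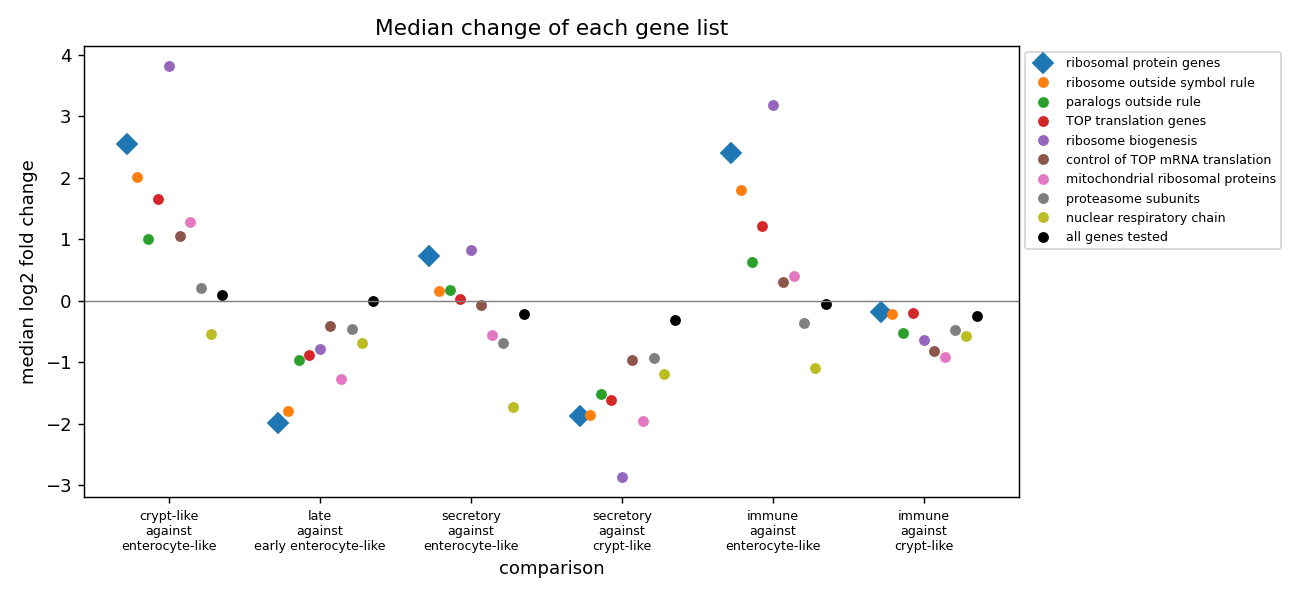
Median log2 fold change of each gene list (symbols) in each of the 6 comparisons, with the ribosomal protein genes as diamonds and all genes tested in black. The diamonds lie at 2.56, -1.99, 0.73, -1.88, 2.41 and -0.19 from left to right, and all genes between 0.10 and -0.31.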

How the data were processed

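Single-cell RNA-seq libraries of 2 rats were analysed. The authors ran Cell Ranger on the rn6 genome, and the deposited tables hold raw UMI counts per gene and barcode, not normalized. Members and gene lists were chosen with earlier results of these data known. Cells were filtered (above) and clustered in Seurat 5.3.0 (rats integrated, 2000 variable genes, 20 components, resolution 0.3, then 0.5) with members and all other counted lists kept from the variable genes. Clusters were named from fixed markers, with levels set after the clusters were seen, and Scrublet marked 119 and 2 doublets, which were kept. Crypt cells with at most 10 epithelial UMIs (62, all rat 2) stayed apart. UMIs were summed per rat and class (13 classes), mitochondrial genes left out, and tested in edgeR 4.0.16 (TMM, low counts filtered, all 67 members tested). SE is the absolute log2 fold change over the square root of F, and per-rat values use a prior count of 2. DESeq2 1.42.0 was an alternative. Named genes were the 5 most changed called members per direction and comparison with one sign in both rats, plus fixed genes. Others named for contrast or as block calls were chosen after their values were seen. In simulated data for crypt-like against enterocyte-like, 174 of 184 genes changed by 3 (log2) were recovered, with 5 false calls. The simulated sums were independent, with no rat effect and no other class differences, so these rates do not carry over to the real sums. Sums share an animal across classes. The rat differences of 78 class pairs correlated by a median of 0.233 over genes (0.0437 to 0.794). Total depth was 99986348 and 66469907 UMIs.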

Additional observations from a re-analysis of the deposited data

How the results depend on the processing

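Crypt-like against enterocyte-like and immune against enterocyte-like counts stayed within 1.5 times under every alternative run, and 680 of 709 values of the named genes kept direction and call, 29 lost the call and 0 turned. The share of all genes called was counted only for the main fits, the replicate block and the fit without TMM. Without TMM 13.8% of all genes rose in secretory against enterocyte-like cells. Late against early (0 lower) gave 29 with DESeq2, 10 without the low-count filter, 58 with the replicate block, 19 with the rats merged without integration and 2 with late genes' share as score, and, chosen after seeing the data, 8 with unnamed absorptive clusters added. Secretory against enterocyte-like (5 higher) gave 20 without TMM, 57 with DESeq2, 3 without the filter, 24 with the replicate block, 2 at 20% mitochondrial UMIs, 13 at resolution 1.0 and 1 with members among the variable genes, and, chosen after seeing the data, 0 with absorptive clusters added and 39 with goblet/Paneth-like cells. That swap gave 11 (48) for secretory against crypt-like. Immune against crypt-like (0) gave 1 when merged. Relative to the module, the replicate block and DESeq2 called 10 and 15 (3) in crypt-like and 3 and 6 (1) in secretory against enterocyte-like, 2 and 3 (0) in secretory against crypt-like, 6 and 12 (1) in immune against enterocyte-like, and DESeq2 called 3 (0) in late against early. The block moved no other count of members by over 1.5 times, and printed counts of other lists that it moved so far have its values beside them. Without TMM the median of all genes was 0.87 in crypt-like against enterocyte-like, where the members' median was 3.35, and with DESeq2 0.58 and 2.99. Mean shares with the 50 most abundant other genes left out were 24.6% crypt-like, 23.1% secretory progenitor-like, 24.6% goblet/Paneth-like, 6.15% goblet-like, 9.38% EEC-like, 3.05% middle, 1.93% late, 25.7% T-cell-like, 23.6% cycling T-cell-like and 8.93% erythroid-like, and 17.8% T-cell-like with mitochondrial UMIs in the total. The causes were not tested. With 1 rat left out each median is 1 rat's value with no test, 2.44 to 2.80, -2.04 to -1.95, 0.37 to 0.87, -2.47 to -1.63, 2.09 to 2.93 and -0.37 to 0.10 in the order above of the plot of lists.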
